A study of Homo sapiens with 9 samples.

Results

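The 6 genes PI3, SLPI, WFDC2, WFDC3, WFDC5 and WFDC12 were taken by symbol as the whey acidic protein (WAP)-domain inhibitors, and all 6 were found among the 24672 genes of the count tables, 1 row each. They were measured by stranded poly(A) RNA sequencing in EPC2 cells, a human esophageal epithelial line immortalized with hTERT. The 9 libraries form 3 groups of 3. Control ALI cultures carried a non-silencing control (NSC) and were differentiated at the air-liquid interface (ALI), that is, on a support with medium below and air above. SPINK7-silenced ALI cultures were grown in the same way with expression of the protease inhibitor SPINK7 silenced. Control monolayers also carried the NSC and were kept undifferentiated. All 3 groups are the same line. The ALI cultures were grown to confluence in 0.09 mM calcium, given 1.8 mM calcium from day 2, brought to the air interface at day 7 and harvested at day 14. The keratinocyte medium held epidermal growth factor at 1 ng/mL and pituitary extract from cattle at 50 ug/mL. The labels describe 1 silenced population, so the silencing construct and the loss of SPINK7 cannot be told apart. Nothing in them states that replicate libraries were grown as independent cultures; the p-values therefore speak only to the variation among the sequenced libraries, part or all of which could be technical.

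The WAP domain, also called the four-disulfide core, is a small fold held together by disulfide bonds between its cysteines. PI3 (elafin, also called SKALP) and SLPI (secretory leukocyte protease inhibitor) are secreted by stratified and mucosal epithelia, where they block neutrophil elastase; elafin also blocks proteinase 3, SLPI also blocks cathepsin G, and both have antimicrobial activity. Elafin carries an N-terminal stretch through which transglutaminases cross-link it to the cornified envelope, and both genes are known to be induced in inflamed squamous epithelium. WFDC5 and WFDC12 are less studied epidermal members, WFDC2 (HE4) is known from glandular epithelia and ovarian tumours, and WFDC3 encodes several WAP domains in a row.

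The genes lie in the WAP cluster of chromosome 20 (hg19, positions of the table rows). In order of position, WFDC5 occupied positions 43738093 to 43743813 on the minus strand, WFDC12 43752067 to 43753106 on the minus strand, PI3 43803540 to 43805185 on the plus strand, SLPI 43880879 to 43883206 on the minus strand, WFDC2 44098394 to 44110172 on the plus strand and WFDC3 44402847 to 44420547 on the minus strand. No row of another gene overlapped any of them. The coding sequences of the WAP cores, from the first to the last cysteine, are shown for the 4 genes that were expressed, because they carry the feature that defines the family and bear on whether reads of one gene could be counted for another. They were read 5′ to 3′ on the coding strand from GENCODE v29 transcripts matched by RefSeq accession, and capitals mark the 8 cysteine codons of each core.
PI3 core, codons 76 to 113 of 117: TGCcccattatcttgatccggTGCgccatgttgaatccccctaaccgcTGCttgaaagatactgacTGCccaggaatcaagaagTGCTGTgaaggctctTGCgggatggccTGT
SLPI core 1, codons 35 to 72 of 132: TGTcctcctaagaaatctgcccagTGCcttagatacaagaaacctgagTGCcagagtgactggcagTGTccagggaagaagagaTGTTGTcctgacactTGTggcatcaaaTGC
SLPI core 2, codons 89 to 126 of 132: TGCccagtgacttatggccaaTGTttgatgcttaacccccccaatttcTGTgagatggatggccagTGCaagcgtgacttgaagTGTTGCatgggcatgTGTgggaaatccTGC
WFDC5 core 1, codons 34 to 70 of 123: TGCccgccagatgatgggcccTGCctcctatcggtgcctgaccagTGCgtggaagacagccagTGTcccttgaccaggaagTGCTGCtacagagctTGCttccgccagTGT
WFDC5 core 2, codons 81 to 117 of 123: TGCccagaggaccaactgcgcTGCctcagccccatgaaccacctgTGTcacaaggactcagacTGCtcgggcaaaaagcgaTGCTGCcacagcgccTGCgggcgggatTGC
WFDC12 core, codons 34 to 70 of 111: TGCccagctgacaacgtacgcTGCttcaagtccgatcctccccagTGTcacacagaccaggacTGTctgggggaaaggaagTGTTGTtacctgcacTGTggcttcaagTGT
All 6 cores had the fifth and sixth cysteine codons side by side, and 5 codons between the third and the fourth and between the fourth and the fifth. The PI3 core and the second SLPI core had the same spacing throughout and were identical at 60 of 114 bases (52.6%), against 46 of 114 (40.4%) for PI3 and the first SLPI core. The WFDC12 core matched the second WFDC5 core at 63 of 111 bases (56.8%). Between whole transcripts of these 4 genes, the longest identical run was 9 to 14 nucleotides (11 for PI3 and SLPI). WFDC2 and WFDC3 held 2 and 4 cores.

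Total counts per library ran from 7641960 to 14009746. SPINK7 itself stood at 229, 261 and 225 CPM (counts scaled to library size, TMM-adjusted) in control ALI libraries 1 to 3 and at 20.9, 38.6 and 32.6 CPM after silencing, which is 12.9% of the control mean. The ALI libraries numbered 2 stood apart from the others on the second principal component (14.0% of the variance): -78.5 for the control and -25.5 for the silenced library, against 14.3 to 55.0 for the other 4 ALI libraries. Results on the silencing are therefore given with and without them. Squamous markers summed to 30239 to 31321 CPM in the monolayers, 35162 to 80851 in control ALI and 46560 to 84435 in silenced ALI cultures. KRT5, KRT14 and KRT6A made up most of the ALI sums. On silencing KRT4 alone of these markers was called, from 536 to 136 CPM (edgeR, adjusted p = 0.0138). IVL (831 to 384 CPM), KRT13 (59.0 to 39.1) and DSG3 (2915 to 2401) also had lower means, with overlap. KRT5, KRT14, KRT6A, TP63 and COL17A1 had higher means. The sum of simple or glandular epithelium markers (15 of 16 in the tables) moved with both comparisons: 3003 to 3381, 408 to 1091 and 1406 to 2245 CPM. The keratin KRT19 was the most abundant of them in each group. This sum does not describe each marker: 12 of the 15 averaged under 1 CPM in monolayers, 5 in control ALI and 6 in silenced ALI cultures. Against the rise of the sum on silencing, MUC1 went from 23.8 ± 11.2 to 12.8 ± 7.58 CPM, with overlap. The part of these markers in the results below was not tested. Leukocyte markers summed to at most 95.3 CPM, with PTPRC, the pan-leukocyte gene, at 0 in all 9 libraries.

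PI3 was among the most abundant transcripts of the differentiated control cultures. It reached 10895, 21759 and 11592 CPM in control ALI libraries 1 to 3, which ranked it 5, 1 and 6 among all genes by count. In silenced ALI libraries it stood at 2968, 5861 and 3829 CPM and ranked 17, 7 and 13. The monolayers held 3.18, 5.16 and 5.74 CPM. The 3 groups do not overlap, and within both ALI groups library 2 was the highest.

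SLPI, the other elastase inhibitor, showed a different order. Control ALI libraries held 2722, 6902 and 3465 CPM. Silenced ALI libraries held 2763, 4796 and 3159 CPM, inside the range of the controls. The monolayers held 2.12, 2.73 and 3.61 CPM, far below both. SLPI ranked 26, 10 and 18 in the control and 19, 10 and 17 in the silenced ALI libraries.

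The epidermal members were less abundant. WFDC12 stood at 411, 707 and 604 CPM in control ALI libraries, at 300.2, 465 and 413 CPM in silenced ones and at 0 counts in all 3 monolayers, where 0 counts allow at most 0.0897 CPM over the group (3 counts, counting error only). Its ALI groups overlap: silenced libraries 2 and 3 lie above the lowest control library. WFDC5 stood at 74.2, 84.4 and 84.1 CPM in control ALI libraries, at 14.7, 43.3 and 21.3 CPM in silenced ones, and at 1 count in each monolayer. Relative to the mean, its control libraries were the tightest of any group of an expressed member (80.9 ± 5.83 CPM, SD, n = 3), and its silenced libraries spread widely (26.4 ± 15.0). WFDC3 and WFDC2 were close to nothing throughout: WFDC3 had 2, 2 and 4 counts in control ALI, 7, 2 and 7 in silenced ALI and 8, 5 and 5 in monolayer libraries, and WFDC2 had 4 counts in all 9 libraries together. These 2 genes did not pass the low-count filter, so 4 of the 6 members were tested, and no fold change is given for the other 2.

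**Figure D1:**
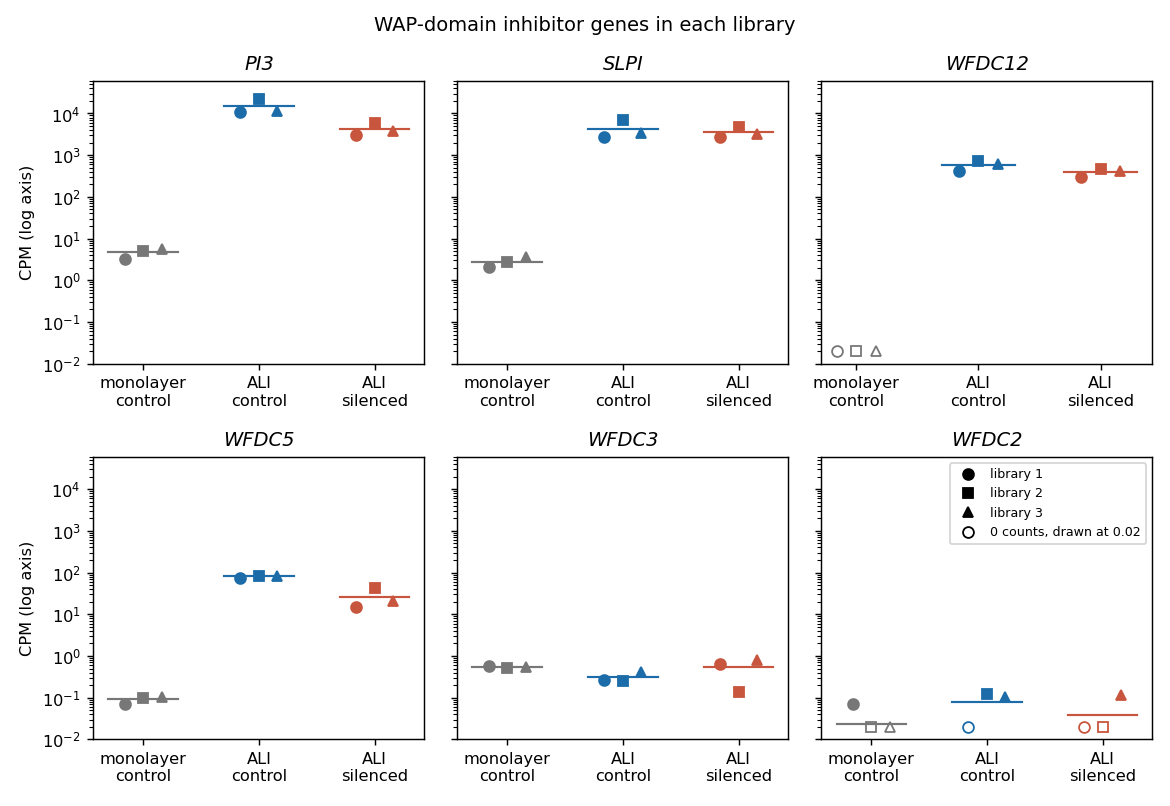
CPM (log axis) of the WAP-domain inhibitors in each of the 9 libraries, grouped as control monolayer, control ALI and SPINK7-silenced ALI culture; each point is a library and open points have 0 counts. PI3 separates into 3 levels, with silenced cultures at 2968 to 5861 CPM between monolayers and controls, while the SLPI values of the ALI groups overlap.

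Together the 6 genes took 1.38, 2.67 and 1.51% of all counts in control ALI libraries 1 to 3, and 0.591, 1.16 and 0.736% in the silenced ones. In the monolayers they took 0.000654 to 0.00104%. PI3 alone made up 77.3, 73.9 and 73.6% of the members' counts in control ALI and 49.1, 52.5 and 51.6% in silenced ALI libraries, with no overlap between the groups.

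Levels of different genes can be compared per length, with the RPKM values that the authors deposited. RPKM is by definition a read density per transcript length and library size, but the lengths and library sizes used were not given. In control ALI cultures the order was PI3 (20762 ± 6851 RPKM, SD, n = 3), SLPI (5664 ± 2441), WFDC12 (585 ± 126), WFDC5 (63.1 ± 4.73), WFDC3 (0.252 ± 0.0876) and WFDC2 (0.106 ± 0.0917). No neighbours in this order overlapped, though WFDC3 and WFDC2 rest on 8 and 2 counts. In silenced ALI cultures the order of the first 4 was kept, but PI3 (4559 to 9294 RPKM) and SLPI (3932 to 7045 RPKM) overlapped; WFDC12 stood at 439 ± 101 and WFDC5 at 22.6 ± 13.1 RPKM. In monolayers PI3 (7.63 ± 2.22 RPKM) and SLPI (4.25 ± 1.16 RPKM) also overlapped, and WFDC3 (0.481 ± 0.0256) came next, above WFDC5 (0.0820 ± 0.0174), whose range overlapped that of WFDC2 (0.0372 ± 0.0645), with WFDC12 at 0.

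The comparison of control ALI cultures with control monolayers, called differentiation here, asks how these genes differ between the kinds of culture. No calcium level, air exposure or harvest day is stated for the monolayers. Effects of calcium, support, air and culture time therefore cannot be told apart from differentiation itself. PI3 rose by 11.62 (log2, SE 0.62, adjusted p = 1.20e-06) and SLPI by 10.60 (SE 0.60, adjusted p = 1.64e-06; edgeR quasi-likelihood test, Benjamini-Hochberg adjustment over 12806 genes). WFDC5 and WFDC12, with 3 and 0 counts in the monolayers, passed the low-count filter only through the ALI groups where they are high, so they had to come out higher and their values are given as a description, with no test. The ratio of pooled WFDC5 levels was 905, with a counting interval of 309 to 4392. WFDC12 was at least 6451-fold higher (3 counts over the group as the floor). In this comparison 40.5% of all tested genes were called, 20.3% were called higher, 27.3% had groups that did not overlap and were higher in ALI cultures, and the median change of all genes was 0.03. In bulk samples, fewer cells of a type and less RNA per cell cannot be told apart.

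The comparison of silenced with control ALI cultures asks what loss of SPINK7 does after the same differentiation. PI3 was at 28.6% of the control mean and WFDC5 at 32.7%, without overlap of the groups, whereas WFDC12 was at 68.4% and SLPI at 81.9%, with overlap. No member passed the adjusted threshold of 0.05: PI3 differed by -1.81 on the log2 scale (SE 0.41, 95% interval -2.80 to -0.81, adjusted p = 0.0757) and WFDC5 by -1.61 (SE 0.34, interval -2.45 to -0.77, adjusted p = 0.0631). WFDC12 differed by -0.55 (SE 0.28, interval -1.24 to 0.14, adjusted p = 0.620) and SLPI by -0.29 (SE 0.39, interval -1.25 to 0.67, adjusted p = 0.840). In edgeR, 0.929% of all tested genes were called (29 higher and 90 lower of 12806, the latter 0.703%), and 0 of 4 members; the unadjusted p was 0.00119 for PI3 and 0.000821 for WFDC5, and 1173 genes had an unadjusted p under 0.05. DESeq2 called 2 members, PI3 (adjusted p = 0.000170) and WFDC5 (adjusted p = 0.00396), and 415 genes in all.

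Groups that did not overlap and were lower in silenced cultures were found for 6.35% of all tested genes. PI3 ranked 207 and WFDC5 254 of 12806 genes from the lowest log2 fold change. Without both ALI libraries numbered 2, PI3 differed by -1.73 (edgeR, adjusted p = 0.00314) and WFDC5 by -2.14 (edgeR, adjusted p = 0.000109), so both were then called, among 708 genes in all. Without silenced library 2 alone both were called as well, PI3 at -2.13 (edgeR, adjusted p = 0.0499) and WFDC5 at -2.19 (edgeR, adjusted p = 0.00396). SLPI turned to 0.21 (edgeR, adjusted p = 0.910) without control ALI library 2 and stood at -0.06 without both.

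**Figure D2:**
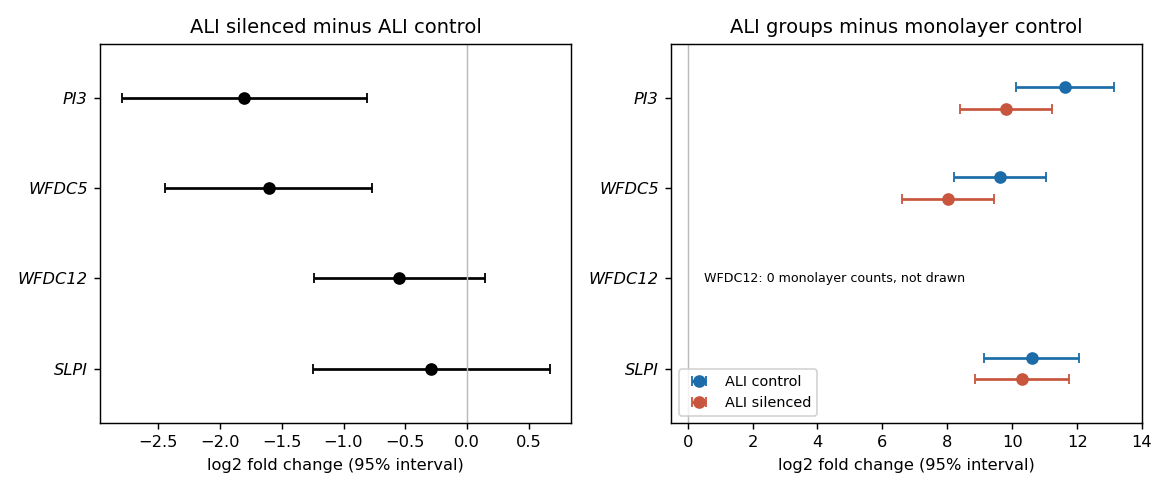
Log2 fold changes of the tested WAP-domain inhibitors, silenced minus control ALI cultures on the left and each ALI group minus control monolayers on the right, with bars for the 95% interval (6 residual degrees of freedom). On the left the intervals of PI3 (-2.80 to -0.81) and WFDC5 (-2.45 to -0.77) lie below 0 and those of WFDC12 and SLPI span it; WFDC12 is not drawn on the right because its monolayers have 0 counts.

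Library 2 was the highest of its group for all 4 genes in both ALI groups. It exceeded the mean of libraries 1 and 3 by a factor of 1.94 in control and 1.72 in silenced cultures for PI3, and of 2.23 and 1.62 for SLPI. For WFDC12 the factors were 1.39 and 1.31, and for WFDC5 1.07 in controls. In silenced cultures WFDC5 had 43.3 CPM in library 2 against 14.7 and 21.3 in the others.

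PI3 and SLPI were also higher in silenced ALI cultures than in control monolayers, PI3 by 9.82 on the log2 scale (SE 0.58) and SLPI by 10.31 (SE 0.59), both with an edgeR adjusted p = 2.73e-06. WFDC5 and WFDC12 are again described without a test, for the same reason: the ratio of pooled WFDC5 levels was 320, with a counting interval of 109 to 1554, and WFDC12 was at least 4453-fold higher. For comparison, 31.7% of all tested genes were called here, 15.8% called higher and 28% had groups that did not overlap and were higher in ALI cultures. This comparison shares its monolayers with the differentiation comparison and its silenced libraries with the silencing comparison.

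The balance of the elastase inhibitors within a library does not depend on the scaling between libraries. PI3 counts per kilobase of transcript exceeded those of SLPI by a factor of 4.13, 3.26 and 3.46 in control ALI libraries 1 to 3. The factor was 1.11, 1.26 and 1.25 in silenced ALI and 1.55, 1.95 and 1.64 in monolayer libraries. No group overlaps another: silenced cultures were the lowest, monolayers between, controls the highest. The ratio was 2.98-fold lower in silenced than in control ALI cultures (log2 difference -1.58) and 2.11-fold higher in control ALI cultures than in monolayers (1.08). It was 1.41-fold lower in silenced ALI cultures than in monolayers (-0.50). With 3 libraries against 3, the exact permutation test (2-sided) gave p = 0.1 for each of the 3 comparisons, the smallest it can give, and 0.1 after adjustment over them. Control ALI library 2 had the lowest and silenced ALI library 2 the highest ratio of its group, and without both ALI libraries numbered 2 the difference on silencing was -1.68.

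**Figure D3:**
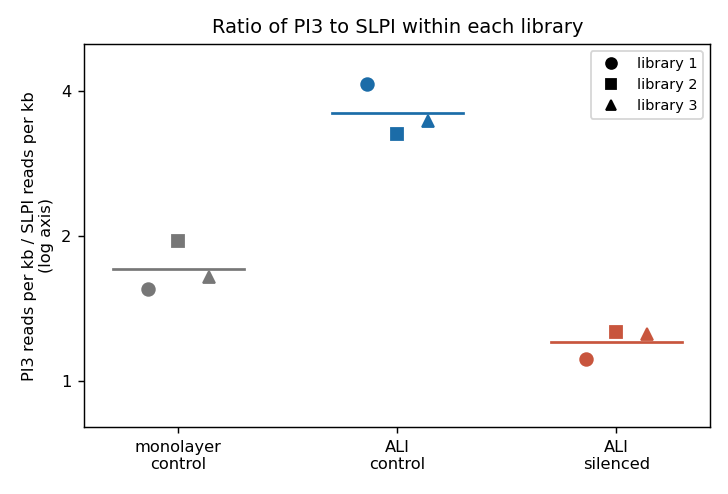
Ratio of PI3 to SLPI counts per kilobase (log axis) within each of the 9 libraries, by group; points are libraries. Control ALI libraries sit at 3.26 to 4.13, monolayers at 1.55 to 1.95 and silenced ALI libraries at 1.11 to 1.26, with no overlap.

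The WFDC12 to WFDC5 count ratio moved the other way, from 5.55, 8.38 and 7.18 in control to 20.4, 10.7 and 19.4 in silenced ALI libraries, again without overlap and with library 2 lowest among the silenced. Set against the control library of the same number, PI3 stood at 27.2, 26.9 and 33.0% and WFDC12 at 73.0, 65.8 and 68.3%, both narrow ranges. WFDC5 stood at 19.9, 51.3 and 25.3% and SLPI at 101.5, 69.5 and 91.2%. The numbers were not shown to pair the libraries, so these are values side by side.

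Over the 6 ALI libraries, log2 CPM of PI3 correlated with WFDC5 at r = 0.94, with WFDC12 at 0.87 and with SLPI at 0.61; SLPI and WFDC5 had the lowest value, 0.46. These are descriptions over libraries that share group and library number. By Pearson's r over all 9 libraries, the genes most like PI3 among 10555 candidates were SPRR2B (r = 0.9988), S100A9 (0.9982), S100A8 (0.9980), ANKRD22 (0.9977) and CYP2C18 (0.9976). SPRR2B, a cornified envelope precursor, went from 757 ± 166 CPM in control to 281 ± 108 CPM in silenced ALI cultures (SD, n = 3 each); it has near-identical SPRR2 copies, so its counts are uncertain. For SLPI they were AZGP1 (0.9991), SPRR2D (0.9986) and LCE3D (0.9984), for WFDC5 CHI3L1 (0.9982), SLC39A2 (0.9970) and RAB25 (0.9960), and for WFDC12 AZGP1 (0.9995), SPRR2E (0.9995) and CNFN (0.9989). Each r over 9 libraries includes the gap between monolayers and ALI cultures.

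The proteases that elafin and SLPI are best known to block were not detected in these cultures. ELANE (neutrophil elastase), PRTN3 (proteinase 3) and CTSG (cathepsin G) had 0 counts in all 9 libraries, as did 5 others of the 16 serine proteases listed; 0 counts allow at most 0.121 CPM in the control ALI group. Of the 5 proteases tested, 4 rose with differentiation, where 20.3% of all tested genes were called higher. Among the 4 were the desquamation proteases KLK7 (8.35 on the log2 scale) and KLK5 (4.19). PRSS3 (0 CPM in monolayers), TMPRSS11D (0.14 CPM) and KLK7 (1.04 ± 0.48 CPM) passed the low-count filter only through the ALI groups, so their rise is no test. In this list and those below, the counts of genes that rose include such genes and are descriptions. On silencing, edgeR called 1 of the 5: PRSS3 (mesotrypsin) fell (log2 fold change -2.35, adjusted p = 0.0176). KLK5 stood at 776 ± 10.3 CPM against 284 ± 46.2 CPM in controls (SD, n = 3 each; log2 difference 1.45, edgeR, adjusted p = 0.0658). KLK7 stood at 736 ± 106 CPM against 355 ± 89.4 CPM (log2 difference 1.05, edgeR, adjusted p = 0.167). Neither passed the threshold in edgeR. DESeq2 called 4 of the 5 (KLK5 and KLK7 higher, PRSS3 and TMPRSS11D lower), and edgeR without both ALI libraries numbered 2 called 1 higher and 2 lower. The median log2 change of all genes on silencing was 0.01.

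Of 13 other protease inhibitors tested, 12 rose with differentiation and SERPINA1 fell by 2.29 on the log2 scale. The list holds serpins, SPINK genes and alpha-2-macroglobulin-like genes and also the cystatins CSTA and CST6, which block cysteine proteases. The 12 include genes that passed the low-count filter only through the ALI groups, such as SERPINB4 (0.02 CPM in monolayers). On silencing edgeR called 2 of the 13 lower, with a list median of -0.55: SERPINB3, known chiefly as an inhibitor of cysteine proteases (log2 fold change -3.30, adjusted p = 0.00246), and SPINK7 itself. DESeq2 called 4, adding SPINK5 and SERPINB8. The group that serves elafin's cross-linking (transglutaminases and envelope proteins, 13 tested) had 12 genes higher on differentiation and TGM2 lower. The 12 again include genes that passed the filter only through the ALI groups, such as LOR (0 CPM in monolayers) and TGM5 (0.02 CPM). On silencing 3 fell: LOR (loricrin, log2 fold change -4.07), FLG (filaggrin, -3.67) and TGM5 (-2.77). TGM1, the main transglutaminase of the envelope, stood at 516 ± 103 CPM against 425 ± 182 CPM in controls (log2 difference 0.28, edgeR, adjusted p = 0.813). The list median was -0.29, and DESeq2 called 4, adding SPRR1A.

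Among 10 antimicrobial proteins of squamous epithelium tested, all 10 rose with differentiation and 1, DEFB1 (a beta-defensin), fell on silencing (log2 fold change -3.81, edgeR, adjusted p = 0.0128), with a list median of -0.82 (4 at an unadjusted p under 0.05; DESeq2 called 2, adding S100A8). Of 18 cytokines and factors known to act on elafin or SLPI expression, 5 rose and 2 fell with differentiation (IL36A, IL36B, IL36G, IL1RN and KLF4 higher, TNF and JUN lower). Among all tested genes 40.5% were called in that comparison, 20.3% higher. The list median was -0.20, against 0.03 for all tested genes. IL36B (0 CPM in monolayers), IL36A (0.12 CPM) and IL36G (0.42 CPM) passed the low-count filter only through the ALI groups, so their rise is no test. On silencing edgeR called 0 of the 18 (4 at an unadjusted p under 0.05; DESeq2 called 1, IL36B), with a list median of 0.07. IL36B stood at 3.62 CPM in control and 0.587 CPM in silenced ALI cultures. It passed the filter only through the control ALI group, so its fall is no test. IL1B, a known inducer of elafin, differed by 0.01. Among the other WAP-domain genes listed, together with the Kunitz-domain genes SPINT3 and SPINT4 of the same cluster, KAL1 (anosmin) alone passed the filter; it fell with differentiation by 2.59 on the log2 scale, opposite to PI3 and SLPI.

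The 6 members spanned 682.5 kb, and the window from 100 kb before to 100 kb after them held 32 other genes. Of these, 9 had 0 counts, most of them WFDC and SPINT genes between WFDC2 and WFDC3, 7 had 1 to 10 counts and 14 were tested. On differentiation 5 of the 14 rose and 1 fell, where 40.5% of all tested genes were called and 20.3% were called higher. The median of the 14 was 0.36. SDC4, a syndecan gene between SLPI and WFDC2, rose by 1.22 on the log2 scale, and KCNS1, a potassium channel subunit gene beside WFDC5, fell by 1.55. The largest fitted change was that of DBNDD2, which went from 0 counts in the monolayers to 13.2 ± 6.25 CPM in control ALI cultures (SD, n = 3). DBNDD2 passed the low-count filter only through the ALI groups, so its rise is a description with no test. The readthrough SYS1-DBNDD2 rose by 3.15 on the log2 scale; the rows of the pair overlap and reads may have been split between them. On silencing edgeR called 0 of the 14 (2 at an unadjusted p under 0.05), and DESeq2 called 1, DBNDD2. The log2 fold changes of the 14 ranged from -2.56 to 0.81, and 2 of them were positive. Their median was -0.31, against 0.01 for all tested genes. DNTTIP1, which starts head to head with WFDC3, stood at 21.4 CPM in control ALI, 16.5 in silenced ALI and 20.6 in monolayer libraries on average, while WFDC3 had at most 0.819 CPM in any library.

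**Figure D4:**
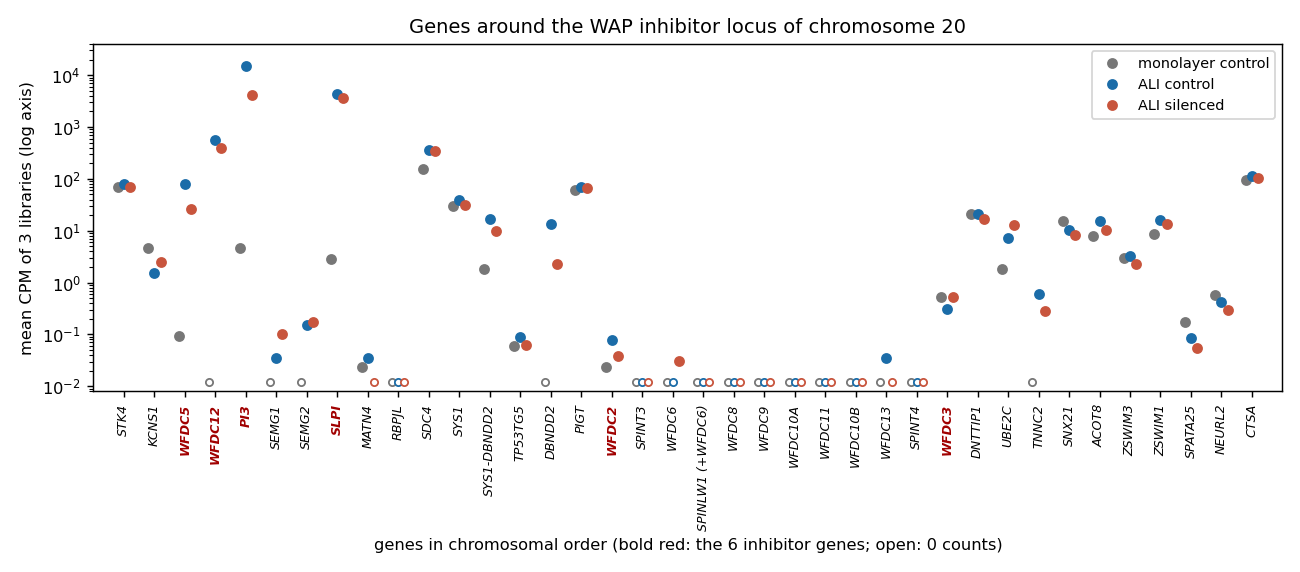
Mean CPM of the 3 libraries of each group (log axis) for the 38 genes of the window on chromosome 20, in chromosomal order; names of the 6 inhibitor genes are in bold red, and open points have 0 counts. PI3 and SLPI in ALI cultures (3573 to 14749 CPM) stand above every other gene of the window, and most WFDC and SPINT genes between WFDC2 and WFDC3 have 0 counts.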

How the data were processed

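Whole-number counts and RPKM per gene were deposited by the authors for each library, in tables of 29800 rows. The submitters' processing notes name hg19, STAR 2.4.2a, Bowtie and MACS2. Not given in the sources used here were the counting program, its annotation, its use of strand and the RPKM denominator. Rows were summed per gene and chromosome, leaving 24672 genes; 511 rows naming several genes held 0.41 to 0.55% of counts. Counts of all 9 libraries entered 1 edgeR 4.0.16 quasi-likelihood fit (R 4.3.3, TMM scaling, filterByExpr, robust), with 12806 genes tested, Benjamini-Hochberg adjustment over all of them and a threshold of 0.05. CPM are on TMM-adjusted library sizes. Counts per kilobase used GENCODE v29 transcript lengths. Counting intervals and floors (3 counts) cover counting error only. Tested on simulated data for the silencing comparison over 12806 genes, the fit recovered 56% of 100 genes changed by 1 and 100% of 100 genes changed by 2 on the log2 scale. Every simulated gene had the same fixed dispersion of 0.05, no library stood apart, and changed genes were drawn from those above 5 CPM. These shares therefore check the fit and do not give its power in these data, where PI3 at -1.81 was not called. Monolayer libraries 2 and 3 were closer than other pairs (chi-square per degree of freedom 1.86 against 15.9 to 150) but differed beyond sampling noise and were kept as separate libraries. DESeq2 1.42.0 and limma 3.58.1 were alternatives. Members and lists were chosen with earlier results of these data known. Named genes were the 6 members, SPINK7, the 5 genes with the highest Pearson r to PI3 and the 3 highest for each other tested member, up to 4 called genes per list and comparison by size, and list members a sentence turns on. TGM1, IL1B, DNTTIP1, KRT19 and the called genes listed to complete a count were named after their values were seen.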

Additional observations from a re-analysis of the deposited data

How the results depend on the processing

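Over 21 alternatives (other scaling, filters, tests, samples and units), PI3 and SLPI were called higher in both comparisons with monolayers every time, and the PI3 to SLPI ratio kept its direction in each of its 9 alternatives. On silencing, 0 members were called in the edgeR fit (119 genes in all) and 2 with DESeq2 (415 in all). Limma-voom called 1 member (148 in all), the fit with no low-count filter 1 (164) and log2(RPKM + 1) 1 (173). Without both ALI libraries numbered 2, 2 members were called (708 in all). The number of members called ranged from 0 to 2 when each library was left out in turn. PI3 was called in 4 of 21 alternatives (-2.13 to -1.41, adjusted p 0.000170 to 0.323) and WFDC5 in 7 (-2.19 to -1.32, adjusted p 0.000109 to 0.261); both stayed negative in all. WFDC12 was called in none (-0.74 to -0.37, adjusted p 0.335 to 1). SLPI was called in none; it lay at -0.57 without silenced ALI library 2 and reversed to 0.21 without control ALI library 2; the cause was not tested. Library numbers are shared between groups, and same-numbered control and silenced ALI libraries deviated together in 2 of 3 pairs (r = 0.49, 0.58 and -0.01). With 3 libraries a group, deviations from the group mean constrain one another, so these values cannot decide whether the numbers pair the samples. With the number as a replicate block 2 members were called, among 176 genes in all. These were PI3 at -1.80 (edgeR, adjusted p = 0.0288) and WFDC5 at -1.75 (edgeR, adjusted p = 0.0168). Genes called on silencing numbered 119 in the edgeR fit and 28 to 708 over the alternatives (415 with DESeq2, 708 without both ALI libraries numbered 2, 59 with only the 2 groups compared, 79 with monolayer libraries 2 and 3 summed). Leaving out control ALI library 1, 2 or 3 gave 51, 184 and 56, silenced library 1, 2 or 3 gave 28, 236 and 33, and monolayer library 3 gave 78. For silenced ALI against monolayers 4058 genes were called, 2675 without silenced library 3, 2652 without monolayer library 2 and 6459 without both ALI libraries numbered 2. On differentiation the calls split into 2602 higher and 2586 lower, and into 1928 and 3372 with log2(RPKM + 1). With log2(RPKM + 0.1) the median of all genes was 0.14 on silencing and -0.18 on differentiation, against 0.01 and 0.03. Without both ALI libraries numbered 2, the counts on silencing became 1 higher and 2 lower of 5 proteases, 4 lower of 13 other inhibitors, 5 lower of 13 cross-linking genes, 3 lower of 18 cytokines and factors and 5 lower of 10 antimicrobial genes. Depth limits WFDC2, WFDC3 and the monolayer levels of WFDC5 and WFDC12, which rest on 0 to 18 counts per group.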
